A study of Homo sapiens with 6 samples.

Results

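PGF and the other genes of the VEGF family that were examined here are 4 ligands (PGF, VEGFA, VEGFB and VEGFC) and 3 receptors (FLT1, KDR and FLT4), 7 of the 22604 genes in the deposited count table. The genes were found by their symbols, and the family was chosen by the counts of PGF in cells with wild-type NFIB against those with an empty vector, where PGF was higher. The values of that comparison are therefore given as a description, with no p value for any member, and PGF is given without a p value throughout, since the other comparisons use libraries of the one that chose it.

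RNA was measured by sequencing in SKNMC, a human Ewing sarcoma cell line, in 3 groups of 2 libraries each. The groups carried an empty expression vector (EV), an expression vector for wild-type NFIB (WT) or one for an NFIB deletion (ΔIDR), which lacks the intrinsically disordered region of this transcription factor. All cells express the endogenous NFIB gene and the EWS-FLI1 fusion, and according to the methods of the study vectors were delivered by lentivirus with puromycin selection and RNA-seq was done in biological duplicate. The libraries held between 6664231 and 8465572 counts, so that 1 CPM (a count scaled by library size) corresponds to 6.66 counts in the smallest library. Genes with a count numbered 18740 and 18703 in EV cells, 18562 and 18632 in WT cells and 19591 and 19126 in ΔIDR cells. What this contributes to differences of genes with low counts, such as FLT1, was not tested. NFIB RNA was at 160.1 ± 21.97 CPM (SD, n = 2) in EV cells, 1010 ± 58.1 CPM in WT cells and 2280 ± 74.2 CPM in ΔIDR cells, so the truncated construct was also the more abundant one. The 11 Ewing sarcoma markers in the table were all above 1 CPM on average, from NR0B1 at 22.8 CPM to CCND1 at 1340 CPM.

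VEGF ligands are secreted dimers that bind receptor tyrosine kinases, mostly on endothelial cells. VEGFA acts mainly through KDR (VEGFR2), the receptor that drives endothelial growth, whereas PGF (placental growth factor) and VEGFB bind FLT1 (VEGFR1), which holds VEGFA with high affinity and signals weakly, and VEGFC acts through FLT4 (VEGFR3), the receptor of lymphatic vessels. Neuropilins NRP1 and NRP2 serve as co-receptors. Ewing sarcoma cells are known to secrete VEGFA.

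In hg19, GENCODE places PGF at chr14:75408537-75422329 and FLT1 at chr13:28874483-29069282, both on the minus strand. The 250 bases before their transcription start are shown because PGF chose the family, FLT1 is the member that differed between the constructs, and NFIB binds DNA at the core letters TTGGC, here called the NFI core. They are RefSeq promoter sequences that were matched to hg19, at chr14:75422468-75422717 for PGF and chr13:29069266-29069515 for FLT1. Each ends directly before a start site that was derived from the count table, as its start position plus an assumed offset of 1000 bases. This site is 138 bases upstream of the GENCODE start of PGF and 17 bases inside the GENCODE model of FLT1. The PGF window therefore lies upstream of that gene model. Capitals mark the NFI core TTGGC in PGF and TGACGTCA, the binding sequence of cAMP-responsive factors, in FLT1. The FLT1 window holds no NFI core, and binding at either motif was not tested. Other motifs, among them the GGAA sites that the study links to EWS-FLI1, are not marked.
PGF: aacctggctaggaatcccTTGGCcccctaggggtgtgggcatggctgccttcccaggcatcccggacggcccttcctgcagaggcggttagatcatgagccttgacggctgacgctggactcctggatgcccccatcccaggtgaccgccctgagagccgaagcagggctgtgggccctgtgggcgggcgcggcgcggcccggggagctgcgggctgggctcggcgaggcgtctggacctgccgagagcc
FLT1: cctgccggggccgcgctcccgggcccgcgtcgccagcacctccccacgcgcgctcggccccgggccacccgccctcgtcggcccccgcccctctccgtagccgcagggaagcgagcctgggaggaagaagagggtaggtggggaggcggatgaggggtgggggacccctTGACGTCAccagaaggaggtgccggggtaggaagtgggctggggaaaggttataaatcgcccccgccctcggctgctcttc

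The single TTGGC of PGF begins 232 bases before the start site, and TGACGTCA of FLT1 begins 81 bases before it. The study writes the NFIB half-site as TGGCA, which the PGF match, TTGGCC, does not hold. It also reports that gains of NFIB binding after EWS-FLI1 depletion lay mostly in distal regions, which these windows do not cover. All motifs were searched on both strands. The NFI core occurs in 40.8% of the 35091 RefSeq promoter windows of this length, and TGACGTCA in 1.65%. The complete NFI site, in which this core and its reverse complement face each other across 5 bases, occurs in 0.0285% of windows and in none of the members' windows. The NFI core was not found in the windows of FLT1, KDR, VEGFB, VEGFC or NRP2, nor in a window of PGF that ends 167 bases further downstream. The hypoxia core ACGTG, which occurs in 18.5% of windows, was in none of them. Windows for VEGFA and FLT4 were not used here.

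PGF was lowest in EV cells, intermediate in ΔIDR cells and highest in WT cells. Its counts were 15 and 23 in EV cells, 47 and 51 in WT cells, and 25 and 28 in ΔIDR cells. On the TMM-scaled CPM scale these are 2.05 and 2.75 CPM, 7.05 and 6.57 CPM, and 3.38 and 4.13 CPM. Both WT libraries lay above the other 4, as was the case for 14.2% of the 13501 genes tested.

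The mean level of PGF was 2.398 ± 0.496 CPM in EV cells, 6.81 ± 0.340 CPM in WT cells and 3.76 ± 0.531 CPM in ΔIDR cells. WT was thus 2.80-fold above EV (log2 fold change, log2FC, 1.48 ± 0.26 SE), in the comparison by which PGF was chosen. ΔIDR was 1.54-fold above EV (log2FC 0.63 ± 0.29 SE), and WT was 1.81-fold above ΔIDR (log2FC 0.86 ± 0.24 SE). The exact Poisson 95% intervals of the counts were 8.40 to 24.7 and 14.6 to 34.5 in EV cells and 16.2 to 36.9 and 18.6 to 40.5 in ΔIDR cells. The intervals of these 4 libraries overlapped. Of those in WT cells, the one of replicate 1 (34.5 to 62.5) overlapped both ΔIDR intervals, and the one of replicate 2 (38.0 to 67.1) overlapped that of ΔIDR replicate 2 alone. These intervals cover counting error alone. The log2FC of WT against EV was 1.73 without EV replicate 2 and 1.31 without EV replicate 1.

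**Figure D1:**
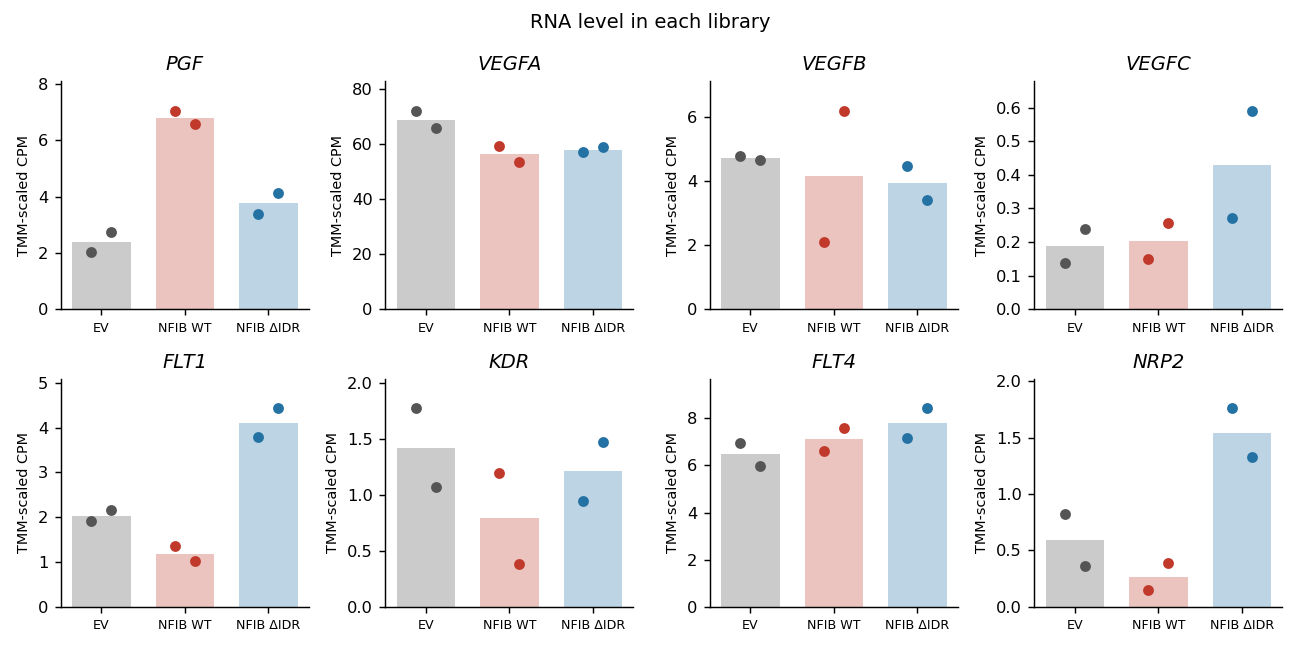
TMM-scaled CPM of the 7 members and NRP2 in EV, WT and ΔIDR cells. Points are the 2 libraries of a group and bars their means, each panel has its own linear axis from 0, and PGF has its highest mean, 6.81 CPM, in WT cells whereas FLT1 has its highest, 4.11 CPM, in ΔIDR cells.

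FLT1, the receptor of PGF, had the opposite order between the constructs. It had 14 and 18 counts in EV cells, 9 and 8 in WT cells and 28 and 30 in ΔIDR cells, or 1.91 and 2.15 CPM, 1.35 and 1.03 CPM, and 3.79 and 4.43 CPM. The Poisson intervals of these counts were 7.65 to 23.5 and 10.7 to 28.4 in EV cells and 4.12 to 17.1 and 3.45 to 15.8 in WT cells. In ΔIDR cells they were 18.6 to 40.5 and 20.2 to 42.8. The EV intervals overlapped those of both constructs, while those of WT and ΔIDR did not meet. Both ΔIDR libraries lay above the other 4, which held for 16.7% of the genes tested. FLT1 was at 1.19 ± 0.226 CPM in WT cells and 4.11 ± 0.453 CPM in ΔIDR cells, a 3.44-fold difference (log2FC -1.78 ± 0.33 SE, 95% interval -2.52 to -1.05, adjusted p = 0.00889 from edgeR).

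Of the 5 members other than PGF that passed the expression filter, FLT1 was the 1 called between the constructs at an adjusted p under 0.05. Over all genes tested, 5.52% were higher and 5.19% lower in WT than in ΔIDR cells at this threshold, and the 1 of 5 members is to be read against these shares. The call of FLT1 was lost in DESeq2 (log2FC -1.79, adjusted p = 0.0707) and in edgeR without ΔIDR replicate 1 (-1.89, adjusted p = 0.0746) or replicate 2 (-1.67, adjusted p = 0.108), while the size of the difference stayed between -1.97 and -1.59 over all settings tried.

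Against EV, FLT1 was 2.002-fold higher in ΔIDR cells (log2FC 1.002 ± 0.29 SE, adjusted p = 0.142), which did not pass. It passed in a fit of these 2 groups alone (adjusted p = 0.0234). In that fit 910 genes were called higher and 973 lower over the whole table, against 40 and 48 in the main fit. Without WT replicate 1 or 2 its log2FC was 0.999 and 1.001. In WT against EV its log2FC was -0.78 ± 0.38 SE.

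FLT1 is usually expressed by endothelial cells. The summed level of the 22 endothelial markers was 28.1 to 31.5 CPM in EV cells, 23.3 to 25.3 CPM in WT cells and 32.2 CPM in both ΔIDR libraries. Of these 22 markers 6 were above 1 CPM on average, led by EMCN at 11.2 CPM, EGFL7 at 7.84 CPM and LYVE1 at 3.20 CPM, and none was at 0 in every library. The defining markers PECAM1, TEK, TIE1 and CLEC14A did not exceed 0.300 CPM in any library, and CDH5 did not exceed 1.95 CPM. The lower sum in WT cells lay in EMCN, at 12.1 ± 1.12 CPM in EV and 7.97 ± 1.30 CPM in WT cells, and LYVE1, at 3.99 ± 0.617 and 1.62 ± 0.806 CPM. SOX18, CDH5 and EGFL7 did not share it, with a log2FC in WT against EV of 0.47 ± 0.39 SE, 0.19 ± 0.44 SE and 0.01 ± 0.21 SE. ERG, the remaining tested marker, was at 1.17 ± 0.881 CPM in EV, 1.04 ± 0.0138 CPM in WT and 2.05 ± 0.0264 CPM in ΔIDR cells. Against EV 0 of the 6 tested markers were called by edgeR or DESeq2 with either construct, and 2 in WT and 0 in ΔIDR cells had an unadjusted p under 0.05. DESeq2 left 4 of the 6 without an adjusted p in ΔIDR against EV. EMCN, a surface mucin, was the 1 of 6 tested markers called between the constructs (log2FC -0.76 ± 0.175 SE, adjusted p = 0.0217), and its call was lost without ΔIDR replicate 1 or 2 (adjusted p = 0.141 and 0.153) and in DESeq2 (adjusted p = 0.125). Over all genes tested, 5.19% were lower in WT than in ΔIDR cells at this threshold. LYVE1, a receptor of lymphatic endothelium, had a log2FC of -1.25 ± 0.38 SE between the constructs (adjusted p = 0.0615). It passed with a replicate block (0.0241) and with no filter (0.00497), settings that called 1048 and 1116 genes lower against 701 in the main fit. Without WT replicate 2 the log2FC of LYVE1 was -1.89. The part of these genes in the difference of FLT1 was not tested. Of the blood cell markers, PTPRC was at 272 CPM on average and CD3E at 0.0492 CPM, and 2 of the 10 in the table were above 1 CPM. The list summed to 263 CPM in both EV libraries, 257 to 280.5 CPM in WT cells and 289 to 319.6 CPM in ΔIDR cells. Most of each sum was PTPRC, with means of 257, 263 and 297 CPM in these groups. Of the 2 tested genes of the list 0 were called in any comparison by edgeR or DESeq2. For 1 of them the unadjusted p was under 0.05, in ΔIDR against EV. Of the 11 Ewing sarcoma markers 1 was called higher in WT than in EV cells, 0 in ΔIDR against EV (4 at an unadjusted p under 0.05, 0 in DESeq2), and 2 were higher and 1 lower in WT than in ΔIDR cells. Over all genes tested, 0.452% were higher in WT than in EV cells, and 5.52% were higher and 5.19% lower in WT than in ΔIDR cells. The marker called against EV was LIPI, at 114 ± 16.5 CPM in WT and 74.4 ± 3.11 CPM in EV cells (log2FC 0.62 ± 0.11 SE, adjusted p = 0.0376), and the call was lost without EV replicate 1 or 2 (0.354 and 0.496), without ΔIDR replicate 1 or 2 (0.167 and 0.166) and in a fit of the 2 groups (0.182). In bulk RNA of a single cell line, fewer cells that express a gene and less of its RNA per cell cannot be told apart.

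KDR and FLT4, the other 2 receptors, were not called in either tested comparison. On chr4:55944648-55991762, KDR, at 0.386 to 1.77 CPM, was near the limit of detection with 3 to 13 counts per library, and its groups overlapped. Its log2FC was -0.86 (± 0.57 SE) for WT against EV, -0.22 (95% interval -1.37 to 0.92, adjusted p = 0.894) for ΔIDR against EV and -0.64 (95% interval -1.98 to 0.70, adjusted p = 0.526) between the constructs. The first of these was -1.82 without WT replicate 1 and -0.22 without WT replicate 2. Both intervals reach below -1 on the log2 scale, so a value less than 0.5 times that of the other group could not be told from no difference at this depth.
FLT4, on chr5:180028506-180076624, was measured more closely, with 51 and 50 counts in EV cells, 44 and 59 in WT cells and 53 and 57 in ΔIDR cells. Its libraries overlapped across all 3 groups, between 5.97 and 8.41 CPM. The log2FC was 0.15 (± 0.20 SE) for WT against EV, 0.27 (95% interval -0.17 to 0.71, adjusted p = 0.581) for ΔIDR against EV and -0.12 (95% interval -0.57 to 0.32, adjusted p = 0.722) between the constructs.

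VEGFA, the principal angiogenic ligand, lies at chr6:43737921-43754224 on the plus strand, was the most abundant member and had its highest level in EV cells. It had 528 and 550 counts in EV cells, 395 and 414 in WT cells and 422 and 399 in ΔIDR cells. The levels were 72.1 and 65.7 CPM in EV cells, 59.2 and 53.3 CPM in WT cells, and 57.1 and 58.9 CPM in ΔIDR cells. Both EV libraries lay above the other 4, as for 6.75% of genes tested, and those of the constructs overlapped.
The log2FC of VEGFA was -0.29 (± 0.10 SE) in WT cells and -0.25 (± 0.10 SE, 95% interval -0.47 to -0.02, adjusted p = 0.285) in ΔIDR against the same EV libraries. The latter passed in a fit of the 2 groups alone (adjusted p = 0.0278), which called 910 genes higher and 973 lower over the whole table. The main fit called 40 and 48. Without WT replicate 1 or 2 this log2FC of VEGFA was -0.249 and -0.246. Between the constructs VEGFA had a log2FC of -0.04 (95% interval -0.28 to 0.19, adjusted p = 0.818). Exons of VEGFA share 188 bases with a long noncoding RNA on the other strand. No source used here gives the strand setting, so reads of the 2 genes may not have been separated.

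VEGFB, a ligand of FLT1 encoded at chr11:64002056-64006736, was at 4.72 ± 0.0826 CPM in EV cells, 4.14 ± 2.89 CPM in WT cells and 3.93 ± 0.756 CPM in ΔIDR cells. The SD in WT cells comes from replicates of 14 and 48 counts, whose Poisson intervals of 7.65 to 23.5 and 35.4 to 63.6 did not meet. Their log2 difference, -1.44, was large next to the SD of 0.38 over all genes for this pair. VEGFB was not called in ΔIDR against EV (log2FC -0.26 ± 0.39 SE, adjusted p = 0.820) or between the constructs (0.11 ± 0.40 SE, adjusted p = 0.886), and the latter value was -0.90 without WT replicate 2. The log2FC in WT against EV was -0.14 (± 0.38 SE), and -1.16 without WT replicate 2.

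VEGFC, the ligand of FLT4 encoded at chr4:177604689-177714076, had 1 and 2 counts in EV cells, 1 and 2 in WT cells and 2 and 4 in ΔIDR cells. It was too low to be tested, and no difference was detectable at this depth.

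Thus 0 of the 5 tested members other than PGF were called in ΔIDR against EV in edgeR, where 0.296% of genes tested were higher and 0.356% lower at an adjusted p under 0.05. At an unadjusted p under 0.05, 2 members would have passed, FLT1 among the 7.77% of genes that were then higher and VEGFA among the 7.42% that were lower. With a 1.5-fold threshold added, FLT1 remained, as did 4.77% of genes in either direction. DESeq2 gave an adjusted p for 2 of the 5 members in this comparison, VEGFA and FLT4, and called 0. For WT against EV, the comparison of the choice, 0.452% of genes were higher and 0.163% lower.

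**Figure D2:**
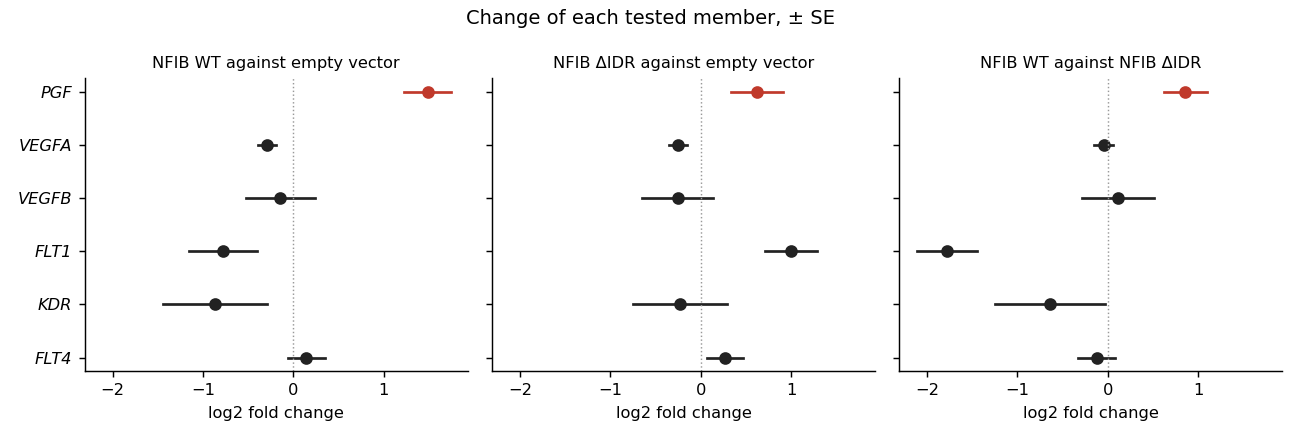
Log2 fold change of the 6 tested members in the 3 comparisons named above each panel, with bars of ± SE. PGF is in red because it was chosen on the first comparison, in which its value is 1.48, and the value of FLT1 between the constructs is -1.78.

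Since genes differ in length, levels of different members were compared as TMM-scaled CPM per kilobase of the gene length in the table. In EV cells VEGFA was at 18.2 ± 1.19, VEGFB at 2.61 ± 0.0458, PGF at 1.25 ± 0.259 and VEGFC at 0.0899 ± 0.0347 CPM per kilobase. In WT cells PGF was at 3.56 ± 0.178 CPM per kilobase, next to VEGFB at 2.29 ± 1.60, from which it does not differ beyond the spread of VEGFB. In ΔIDR cells PGF (1.97 ± 0.278) and VEGFB (2.18 ± 0.419) were also within their spread.

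Among the receptors, FLT4 was at 1.01 ± 0.109, KDR at 0.235 ± 0.0816 and FLT1 at 0.169 ± 0.0141 CPM per kilobase in EV cells. KDR and FLT1 were within their spread of each other there, and FLT1 was the higher of the pair in ΔIDR cells (0.342 ± 0.0377 against 0.200 ± 0.0618). The co-receptor NRP1 was above all 3 receptors, at 3.97 ± 0.0984 CPM per kilobase in EV cells.

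**Figure D3:**
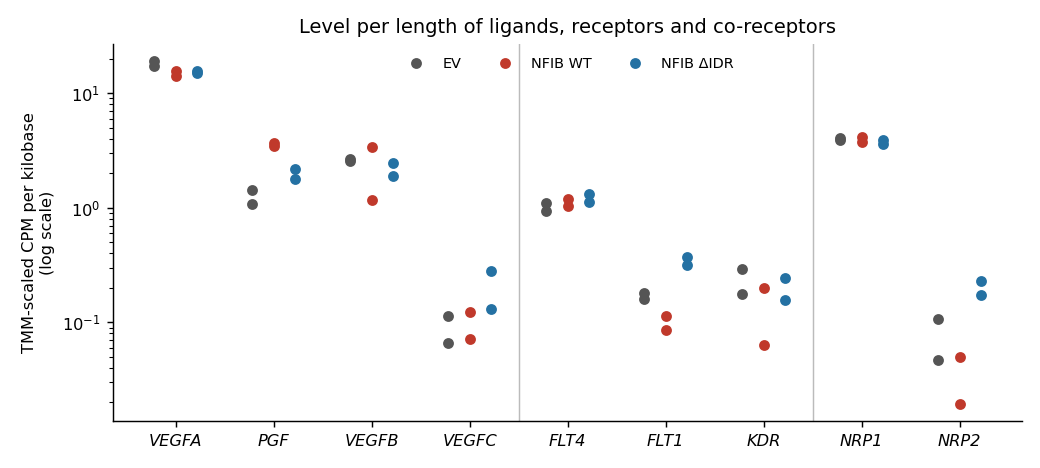
TMM-scaled CPM per kilobase of gene length, on a log axis, for the ligands (left), receptors (middle) and neuropilin co-receptors (right). Points are single libraries, VEGFA is the highest throughout with 18.2 CPM per kilobase in the mean of EV, and PGF in WT cells reaches 3.56 in the mean.

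The ligands that bind FLT1 were also put in relation to one another within each library. Of the summed level per kilobase of PGF, VEGFA and VEGFB, PGF made up 4.70% and 6.72% in EV cells, 18.0% and 16.4% in WT cells, and 9.14% and 11.02% in ΔIDR cells. VEGFA was 17.8 and 12.1 times as high as PGF in EV cells and 4.25 and 4.11 times as high in WT cells. It was 8.54 and 7.21 times as high in ΔIDR cells. PGF enters this ratio with the values that chose it. The summed level itself was 22.1 ± 0.974 in EV cells, 20.8 ± 0.313 in WT cells and 19.5 ± 0.197 CPM per kilobase in ΔIDR cells.

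The genes with a pattern over the 6 libraries nearest to that of PGF were LYSMD2, the noncoding LOC100507377, TMEM91, MEGF10 and STAR. Nearness was the root mean square difference in log2 CPM after centring each gene on its EV mean, and it was 0.24 for LYSMD2 and LOC100507377, 0.31 for TMEM91, MEGF10 and STAR, and 0.92 at the median of 13453 genes. MEGF10, a membrane receptor of engulfing and muscle precursor cells, was at 2.193 ± 0.566 CPM in EV cells, 6.06 ± 1.83 CPM in WT cells and 3.57 ± 1.22 CPM in ΔIDR cells. STAR, the steroidogenic cholesterol transporter of mitochondria, had 6.07 ± 0.299, 11.999 ± 0.212 and 8.56 ± 0.427 CPM, in that order. LYSMD2 was at 1.41 ± 0.132, 3.62 ± 0.390 and 2.39 ± 0.252 CPM. These genes were ranked on the same libraries as PGF, and the ranking is a description.

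**Figure D4:**
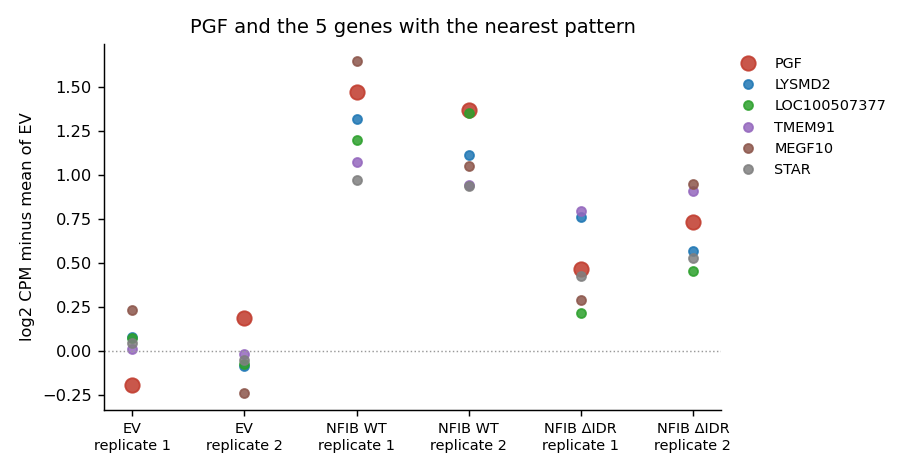
Log2 CPM minus the mean of EV in each library for PGF (large red points) and the 5 genes with the nearest pattern. All 6 genes lie above 0 in the WT and ΔIDR libraries and, in the mean of the group, highest in WT cells.

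NRP1 and NRP2, the co-receptors of the family, differed in level and in pattern. NRP1 was at 23.5 ± 0.582 CPM in EV cells, 23.3 ± 1.62 CPM in WT cells and 22.2 ± 1.57 CPM in ΔIDR cells. Its log2FC between the constructs was 0.07 (95% interval -0.21 to 0.35, adjusted p = 0.766). NRP2 had 6 and 3 counts in EV cells, 1 and 3 in WT cells and 13 and 9 in ΔIDR cells, or 0.819 and 0.358, 0.150 and 0.386, and 1.76 and 1.33 CPM. Like those of FLT1, both ΔIDR libraries of NRP2 were above the other 4, but NRP2 did not pass the expression filter and was not tested. Exons of NRP1 and NRP2 share 561 and 147 bases with noncoding RNAs on the other strand.

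Of the 19 tested genes of a list of co-receptors, heparan sulfate partners and proteases of the ligands, 0 were called in WT against EV (5 at an unadjusted p under 0.05, 0 in DESeq2), 2 fell in ΔIDR against EV, and 2 were higher and 2 lower in WT than in ΔIDR cells (1 called in DESeq2). Over all genes tested, 0.452% were higher in WT and 0.356% lower in ΔIDR than in EV cells. Between the constructs 5.52% were higher and 5.19% lower in WT cells. The calls of this list and those that follow are to be read against these shares. SULF2, a sulfatase that removes sulfate from heparan sulfate, was at 19.5 ± 0.571 CPM in EV cells and 9.95 ± 0.0855 CPM in ΔIDR cells (log2FC -0.97 ± 0.16 SE, adjusted p = 0.0223). PCSK5, a proprotein convertase, was at 27.0 ± 1.99 and 15.3 ± 1.35 CPM (log2FC -0.82 ± 0.13 SE, adjusted p = 0.0223). Without any 1 of the 4 libraries compared both calls were lost, with adjusted p values from 0.200 to 0.401. EXT2, which builds heparan sulfate chains, was higher in WT than in ΔIDR cells (log2FC 0.47 ± 0.10 SE, adjusted p = 0.0166), and PTPRB, an endothelial phosphatase, was lower (-0.86 ± 0.20 SE, adjusted p = 0.0220). These 2 calls were lost without ΔIDR replicate 1 (adjusted p = 0.195 and 0.0729) or replicate 2 (0.107 and 0.204), and that of PTPRB also in DESeq2 (0.111), while EXT2 missed a 1.5-fold threshold.

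The PDGF family is built like the VEGF family. Of its 4 tested genes 0 were called against EV with either construct by edgeR or DESeq2, and 2 in each comparison had an unadjusted p under 0.05. PDGFRA, a receptor of mesenchymal cells, followed FLT1 in its order, at 2.398 ± 0.496 CPM in EV cells, 1.27 ± 0.332 CPM in WT cells and 4.88 ± 0.401 CPM in ΔIDR cells (log2FC between the constructs -1.95 ± 0.33 SE, adjusted p = 0.00576). Without ΔIDR replicate 1 or 2 the adjusted p of PDGFRA was 0.0658 or 0.0771. The ligand PDGFD was at 22.9 ± 0.884, 33.4 ± 2.61 and 24.2 ± 0.805 CPM in these groups, a log2FC of 0.46 between the constructs (± 0.12 SE, adjusted p = 0.0330) that did not pass in DESeq2 (adjusted p = 0.176), in a fit of these 2 groups (0.0753) or without 1 EV (0.0728 and 0.0726) or ΔIDR library (0.175 and 0.239). It also missed a 1.5-fold threshold. FIGF, the symbol under which the table lists the ligand VEGFD, was not tested.

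Of 45 tested genes that relay signals of the receptors, 0 were called against EV with either construct by edgeR or DESeq2 (7 in WT and 8 in ΔIDR cells at an unadjusted p under 0.05). Between the constructs 5 were higher and 2 lower in WT than in ΔIDR cells (2 called in DESeq2), beside 5.52% and 5.19% of all genes tested. The higher ones included the adaptor SHC1 (log2FC 0.59 ± 0.10 SE, adjusted p = 0.00483) and the kinase AKT1 (0.61 ± 0.11 SE, adjusted p = 0.00792). Without ΔIDR replicate 1 or 2 both calls were lost, with adjusted p from 0.0643 to 0.135. The median log2FC of the list between the constructs was 0.03, as against 0.00 over all genes tested. Of 13 genes that VEGF induces in endothelium, 0 were called against EV by edgeR or DESeq2 (2 with each construct at an unadjusted p under 0.05), and NR4A3 was higher and EGR2 lower in WT than in ΔIDR cells (log2FC 0.79 and -0.91, SE 0.14 and 0.21, adjusted p = 0.00689 and 0.0222). Both nuclear factors lost the call without ΔIDR replicate 1 (adjusted p = 0.115 and 0.206) or replicate 2 (0.0643 for each), and EGR2 also in DESeq2 (0.130) and in a fit of the 2 groups (0.0515).

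Low oxygen induces VEGFA and other genes through hypoxia-inducible factors. Of 26 tested hypoxia genes, ANGPTL4 was called in WT against EV (log2FC 1.75 ± 0.16 SE, adjusted p = 0.000796) and 0 were called in ΔIDR cells (4 at an unadjusted p under 0.05, 0 in DESeq2). Between the constructs 5 were higher and 2 lower in WT cells, beside 5.52% and 5.19% of all genes tested. ANGPTL4, a secreted protein of lipid and vessel biology, was at 25.4 ± 0.503 CPM in WT against 9.33 ± 0.375 CPM in ΔIDR cells (log2FC 1.45 ± 0.15 SE, adjusted p = 0.000739), and NDRG1, a stress protein, was at 9.29 ± 0.0184 against 17.7 ± 1.09 CPM (-0.93 ± 0.15 SE, adjusted p = 0.00470). The call of NDRG1 was lost without ΔIDR replicate 1 or 2 (adjusted p = 0.0545 and 0.0742), and that of ANGPTL4 passed in every setting tried. The median log2FC of the list was 0.10 in WT cells and -0.09 in ΔIDR against the shared EV libraries, beside -0.29 and -0.25 for VEGFA.

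Of 11 tested factors known to act on PGF or VEGFA transcription, 0 were called against EV by edgeR or DESeq2 (2 with each construct at an unadjusted p under 0.05), and TFAP2A, which encodes AP-2α, was lower in WT than in ΔIDR cells (16.3 ± 1.58 against 27.3 ± 2.38 CPM, log2FC -0.74 ± 0.14 SE, adjusted p = 0.00945). It lost the call without ΔIDR replicate 1 or 2 (adjusted p = 0.0702 and 0.126). HIF1A, the oxygen-regulated factor, was at 300.2 ± 14.3, 263 ± 18.4 and 282 ± 6.67 CPM in EV cells, WT and ΔIDR (log2FC between the constructs -0.10 ± 0.09 SE, adjusted p = 0.490).

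Other secreted factors that promote vessel growth were called singly. Of 14 tested, ANGPTL4 was called in WT against EV, 0 in ΔIDR against EV (5 at an unadjusted p under 0.05, 1 in DESeq2), and 2 were higher and 1 lower in WT than in ΔIDR cells (1 called in DESeq2). The shares between the constructs over all genes tested were 5.52% and 5.19%. MDK, a heparin-binding growth factor, was at 47.8 ± 0.162 CPM in EV and 27.3 ± 3.91 CPM in ΔIDR cells (log2FC -0.81 ± 0.17 SE, adjusted p = 0.0605). It passed in DESeq2 (0.0208), with a replicate block (0.0350), with no filter (1.22e-06) and in a fit of the 2 groups (2.39e-12). Over the whole table the last 3 settings called 120, 276 and 910 genes higher and 121, 274 and 973 lower, against 40 and 48 in the main fit. Without WT replicate 1 or 2 the log2FC of MDK was -0.806 and -0.804. The gene that was lower in WT than in ΔIDR cells was CXCL8, a chemokine, at 0.568 ± 0.257 against 2.85 ± 0.775 CPM (log2FC -2.31 ± 0.48 SE, adjusted p = 0.0141), which was lost in DESeq2 (0.0908) and without ΔIDR replicate 1 or 2 (0.0728 and 0.157). Of 13 inhibitors of vessel growth 0 were called in WT against EV (3 at an unadjusted p under 0.05, 0 in DESeq2), and 1 was higher and 3 lower in WT than in ΔIDR cells (1 called in DESeq2), beside 5.52% and 5.19% of all genes tested. CXCL10, an interferon-induced chemokine, rose in ΔIDR against EV from 3.18 ± 1.29 to 11.7 ± 0.619 CPM (log2FC 1.89 ± 0.26 SE, adjusted p = 0.0132). Without any 1 of the 4 libraries compared that call was lost (adjusted p from 0.0511 to 0.274). SEMA3A, which competes with VEGFA for NRP1, was at 1.96 ± 0.407 CPM in WT cells and 5.42 ± 0.565 CPM in ΔIDR cells (log2FC -1.48 ± 0.29 SE, adjusted p = 0.0116), and lost the call in DESeq2 (0.0768) and without ΔIDR replicate 1 or 2 (0.128 and 0.0782).

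**Figure D5:**
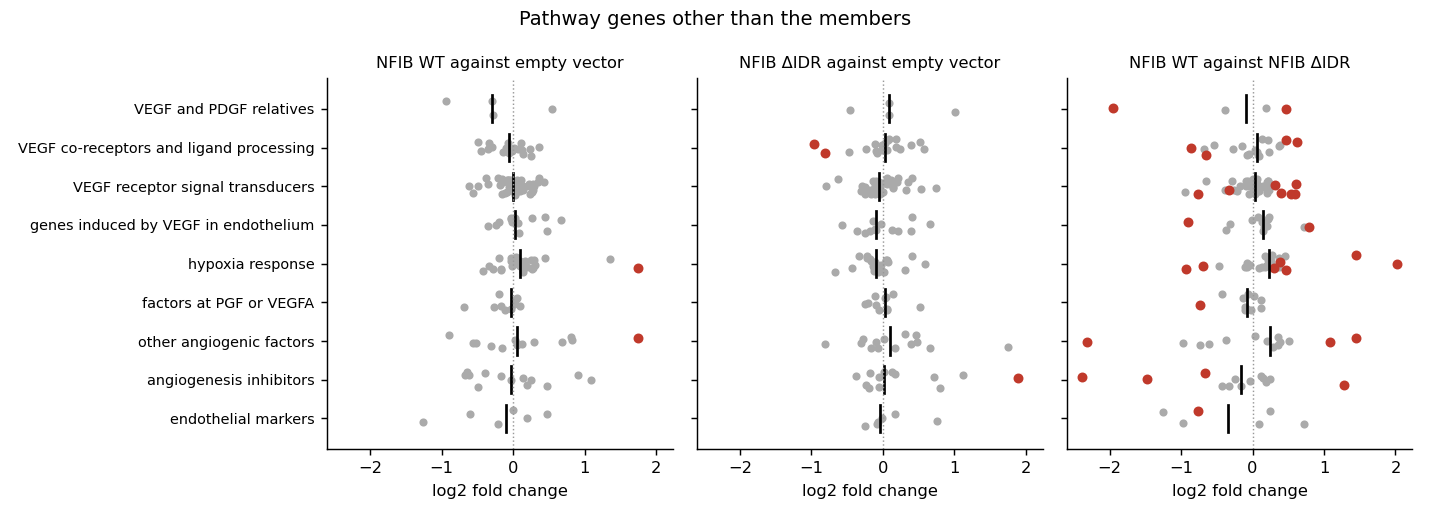
Log2 fold change of the tested genes of 9 lists around the VEGF family in the 3 comparisons named above each panel. Each point is a gene, in red where its adjusted p from edgeR was under 0.05, and black lines are list medians, which for the hypoxia genes are 0.10, -0.09 and 0.24 from left to right.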

How the data were processed

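Total RNA of 6 SKNMC cultures was sequenced (CORALL kit, NextSeq 500). The authors made reads with CASAVA 2.19, aligned them to hg19 with STAR 2.4.0h and used featureCounts on RefSeq genes. The deposited values are raw counts, 1 per gene and library. No source used here gives the strand setting or how multi-mapping reads and molecular identifiers were handled.

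Genes passing filterByExpr (at least 10 counts, total of at least 15) were normalized with TMM factors, and all 6 libraries entered 1 quasi-likelihood fit with a coefficient for each group (edgeR 4.0.16, R 4.3.3). Benjamini-Hochberg adjustment covered all 13501 genes tested. A p value sets a difference between groups against the spread between libraries within groups, which was pooled over all groups and moderated across genes. SE is the log2 fold change divided by the root of the F statistic. Common biological variation was 0.0776. Levels are TMM-scaled CPM, and the log2 CPM used to find genes like PGF had a prior count of 2. The fits were also run on counts simulated with the spread estimated from these data, which cannot check that estimate.

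The members and gene lists were chosen with earlier results of these data known. Named genes were the members, NFIB, NRP1 and NRP2, in each list the genes called against the empty vector or up to 2 with the smallest p, leading or near-zero markers, and the 5 genes nearest to PGF. Promoters came from RefSeq (GRCh38.p14) and were placed on hg19 by sequence, and gene positions came from GENCODE lifted to hg19. As alternatives, DESeq2 1.42.0, other scaling and filters, the 2 groups alone, a replicate block, robust fitting, a 1.5-fold threshold with unadjusted p and the loss of each library were tried. DESeq2 gave no adjusted p to some genes with low counts, which cannot be among its calls. Figures were drawn with matplotlib 3.10.9.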

Additional observations from a re-analysis of the deposited data

How the results depend on the processing

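The log2 fold change of PGF with NFIB WT against the empty vector was 1.48 and lay between 1.31 and 1.73 over the single libraries left out. It was 1.49 with the replicate number as a replicate block, which changed no call of a member and, of the listed genes named, added those of PDGFD, NR4A3 and TFAP2A with NFIB WT against the empty vector (adjusted p = 0.0433, 0.0394 and 0.0402), MDK with NFIB ΔIDR against it (0.0350) and LYVE1 between the constructs (0.0241). Same-numbered libraries deviated together by correlations of 0.15, 0.02 and 0.05 over genes, and no label ties them to a batch. Of the members other than PGF, 1 was called between the constructs, 0 in DESeq2 and 0 to 1 over the libraries left out. With NFIB ΔIDR against the empty vector 0 were called, 2 in a fit of the 2 groups, 1 at 1.5-fold with an unadjusted p under 0.05, and 0 to 2 over the libraries left out. The number of genes called over the whole table moved far more, from 745 higher and 701 lower between the constructs to ranges of 67 to 2229 and 42 to 2176, from 61 and 22 to 8 to 1518 and 1 to 1533 with NFIB WT, and from 40 and 48 to 2 to 910 and 2 to 977 with NFIB ΔIDR against the empty vector. The log2 difference between the 2 libraries of a group had an SD over genes of 0.28 for the empty vector, 0.38 for NFIB WT and 0.28 for NFIB ΔIDR. A fit of the empty vector and NFIB ΔIDR libraries alone called 910 genes higher and 973 lower with NFIB ΔIDR. The cause of these shifts was not tested.

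Among values of single genes under all alternatives, 106 gained a call, 65 lost one and 10 changed sign, the last each when 1 library was left out and each without a call. Their log2 fold changes over the libraries left out ran from -0.56 to 0.16 for KDR with NFIB ΔIDR against the empty vector (0.069 without NFIB ΔIDR replicate 1), and from -0.12 to 0.035 for VEGFA, from -0.90 to 0.65 for VEGFB (-0.065 without NFIB ΔIDR replicate 2), from -1.59 to 0.0024 for KDR and from -0.0025 to 0.14 for NRP1 between the constructs. With NFIB WT against the empty vector they ran from -0.081 to 0.064 for NRP1 (0.017 without empty vector replicate 1) and from -0.035 to 0.097 for PTPRC. The table gives gene lengths, so lengths from the annotation were not tried. Depth limits VEGFC, NRP2 and KDR most.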
